A study of Mus musculus with 10 samples.

Results

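The genes described here encode the core of the desmosome, together with E-cadherin of the adherens junction. They are Cdh1, Dsg2, Dsg3, Dsc2, Dsc3, Dsp, Jup, Pkp1, Pkp3 and Perp, chosen by symbol as the structural genes of these junctions in stratified epithelium. All 10 had a row among the 18586 rows of the expression table, and 9 passed the filter of at least 1 TPM in at least 4 libraries. TPM, a transcript abundance, divides reads by transcript length and scales each library to a common sum, so that levels of different genes can be set side by side. Bulk RNA-seq was performed on epithelial cells of the mouse tongue, isolated 15 days after transgene induction and kept in culture, with a sort for the GFP reporter. The paper describes the sort of EY cells as made from a first culture, after which sorted cells were cultured again. Cells of the N genotype carried Krt14-CreERT (a Cre driver), LSL-rtTA (the reverse transactivator) and tetON_H2B-GFP (the reporter). Cells of the EY genotype carried these 3 alleles and, in addition, tetON_E6-E7 (oncogenes of human papillomavirus) and tetON_YAP1S127A (an active form of YAP1). Both genotypes were exposed to tamoxifen and doxycycline. The Krt14 promoter limits recombination to Krt14-expressing epithelium, and only sorted and cultured cells were measured. The 6 EY libraries came from 3 lines, EY3960 (EY replicates 1 and 4), EY4028 (replicates 2 and 5) and EY4174 (replicates 3 and 6). The 4 N libraries all came from the line N4172, so that genotype and line cannot be told apart, and p-values over libraries measure in part the spread within a line. The labels do not say whether libraries of a line were separate cultures.

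Desmosomes rivet neighbouring keratinocytes together and anchor their keratin filaments. Desmogleins and desmocollins, which are cadherins, bridge the gap between cells, plakoglobin (Jup) and plakophilins bind the cadherin tails, and desmoplakin (Dsp) ties this plaque to keratin. Adherens junctions use E-cadherin (Cdh1) with beta- and alpha-catenin to hold the actin cytoskeleton instead, and plakoglobin can take part in both junctions. Desmoglein 3, desmocollin 3 and plakophilin 1 are the isoforms typical of stratified epithelium, whereas desmoglein 2, desmocollin 2 and plakophilin 2 are typical of simple epithelium and heart.

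Libraries had between 10852 and 11522 genes at 1 TPM or more, and mitochondrial transcripts made up 14.1% to 20.5% of a library. The read depth is unknown. Yap1 lay between 34.7 and 57.1 TPM in EY and between 17.2 and 20.9 TPM in N. The paper's transgene primers are for human YAP1, and whether the mouse Yap1 row holds reads of the transgene is not known. The 7 basal keratinocyte markers summed to 4256 to 7200 TPM in EY and 5293 to 6027 TPM in N. Among them Krt15 was lower in every EY library (8.70 to 35.3 TPM) than in any N library (64.3 to 97.9 TPM), missed the threshold over all EY libraries (log2 fold change -1.90, limma adjusted p 0.0168) and passed in each EY line against N (adjusted p 9.78e-05 or less in EY4028 and EY4174, 1.48e-04 in EY3960). Krt15 was named after its values were seen, and its part in the results was not tested. Markers of fibroblasts (2 of 6 with a row), skeletal muscle (2 of 5) and endothelium (3 of 4) summed to less than 1 TPM in every library, at most 0.748, 0.933 and 0.606 TPM. The melanocyte markers (3 of 4 with a row) summed to at most 3.24 TPM, and the immune markers other than Cd68 (3 of 4 with a row) to at most 0.42 TPM. Cd68 itself, set apart after its values were seen, lay between 29.3 and 71.8 TPM. N replicate 4 stood apart from the other N libraries for several genes, and the member calls that turn on it are given with and without it. In bulk samples, fewer cells of a type and less RNA per cell cannot be told apart.

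Promoter windows were at hand for 2 members. The windows are RefSeq sequences on GRCm38.p6, a different build from that of the authors' alignment. They are shown for Jup, the member that differed most clearly between EY and N, and for Dsp, its partner in the plaque, which did not pass the test. Each runs 5′ to 3′ on the gene's strand from 250 bases before the transcription start to 30 bases after it, at chr11:100397761-100398040 (minus strand) and chr13:38151044-38151323 (plus strand). Capitals mark matches to any of 4 motifs searched on both strands.
Jup: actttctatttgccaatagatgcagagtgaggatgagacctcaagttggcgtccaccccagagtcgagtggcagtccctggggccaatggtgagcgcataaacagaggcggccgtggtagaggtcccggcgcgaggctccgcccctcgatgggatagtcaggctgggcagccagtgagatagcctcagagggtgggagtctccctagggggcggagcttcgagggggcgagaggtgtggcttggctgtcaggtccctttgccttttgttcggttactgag
Dsp: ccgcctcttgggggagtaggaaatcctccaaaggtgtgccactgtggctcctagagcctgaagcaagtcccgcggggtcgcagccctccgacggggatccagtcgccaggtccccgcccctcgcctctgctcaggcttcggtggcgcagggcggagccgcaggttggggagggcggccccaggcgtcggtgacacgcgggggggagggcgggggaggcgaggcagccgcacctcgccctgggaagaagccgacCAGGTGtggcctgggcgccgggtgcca
The motifs were CAGGTG (the E-box of Snail and Zeb factors), GGAATG (TEAD factors, the partners of YAP1), AACNGGTT (grainyhead-like factors) and TGANTCA (AP-1). Over all 32851 windows of 300 bases, 20.2% held the E-box, 14.7% the TEAD motif, 2.09% the grainyhead-like motif and 7.81% the AP-1 motif. The Jup window held none of them, and the Dsp window held 1 E-box, which begins at base 4 after the start. A match is no evidence of binding, and the absence of one says only that these letters do not occur in the window.

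The members spanned a wide range of levels. Perp, Cdh1, Dsg2 and Dsc2 kept the same rank in all libraries, and the other members shifted in rank between libraries. Perp, a tetraspan membrane protein that desmosomes need for stable assembly, was the highest member in each of the 10 libraries, at 1030 ± 236 TPM in EY (n = 6, SD) and 834 ± 92.6 TPM in N (n = 4, SD). Dsg3 and Dsc3 followed, at 122 ± 29.8 and 93.1 ± 16.6 TPM in EY and at 118 ± 9.31 and 114 ± 17.7 TPM in N. The ranges of these 2 genes overlapped within each group. The plaque genes Jup, Pkp1, Pkp3 and Dsp lay between 29.4 and 73.4 TPM, with Jup at rank 4 of the 10 members in each EY library and at rank 5 to 7 in N. Cdh1 was eighth in every library, at 11.4 to 19.9 TPM, and Dsg2 ninth, at 0.829 to 3.32 TPM. Dsc2 was the lowest, with at most 0.267 TPM in EY and 0.102 TPM in N and a listing of 0 in N replicate 1, and it was not tested. In line EY4028 it lay at 0.267 and 0.198 TPM, above every other library but at a level that is hard to separate from 0.

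The cadherins were thus almost wholly of the stratified type. Dsg3 made up 98.0% to 99.0% of the summed Dsg2 and Dsg3 TPM in EY and 97.5% to 98.03% in N. Dsc3 made up at least 99.7% of Dsc2 and Dsc3 in every library. These shares are descriptions, and no test was run on them.

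**Figure D1:**
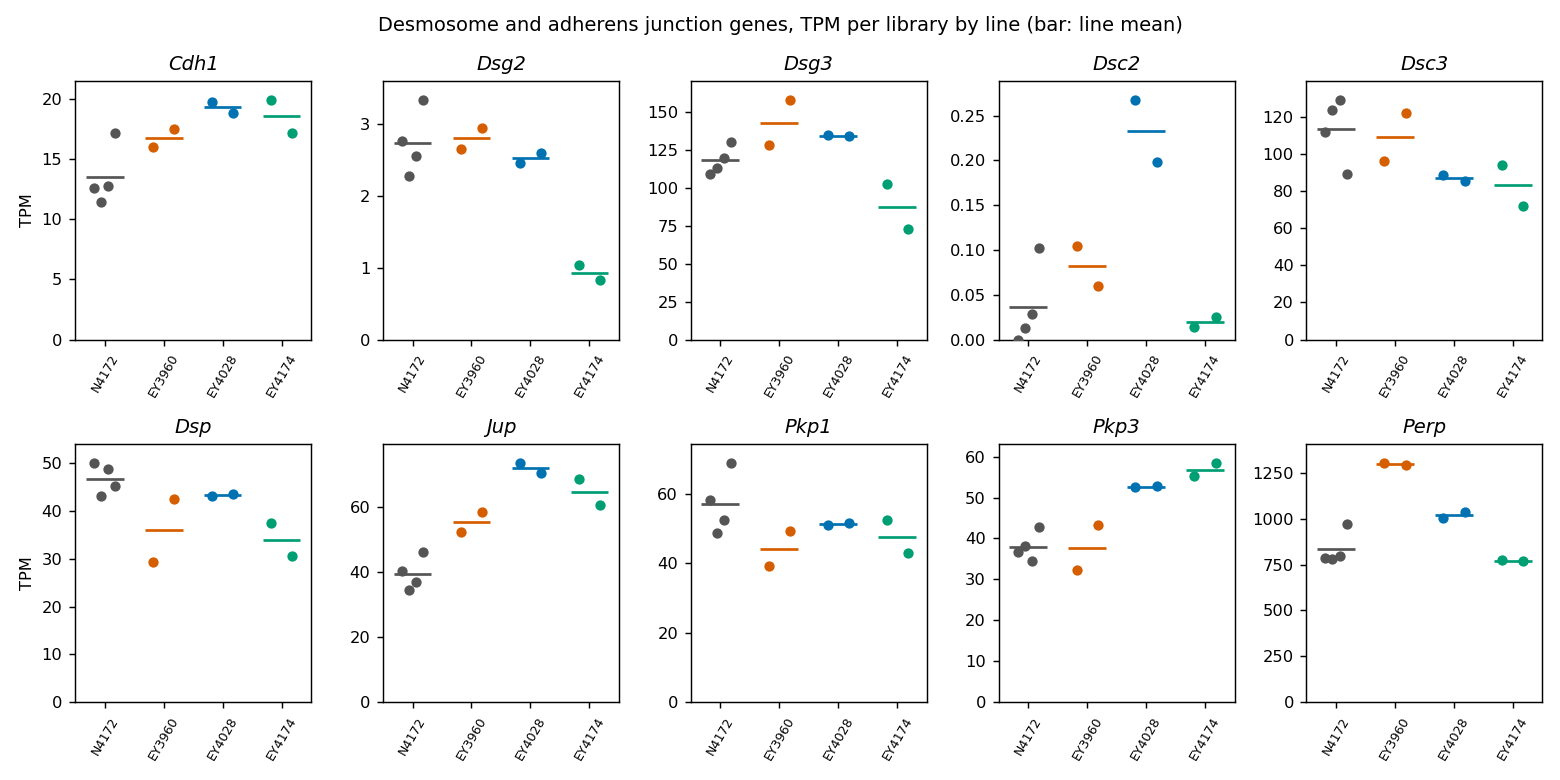
TPM of each member (vertical axis, from 0, with its own scale) in the 10 libraries, grouped by line (horizontal axis); points are libraries and bars line means. For Jup all 6 EY points (52.2 to 73.4 TPM) lie above all 4 N points (34.4 to 46.04 TPM). For Perp the EY lines lie apart from one another, and for Dsg2 line EY4174 lies below the other lines.

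The first comparison asked whether expression of the junction genes differed between EY and N cells. Jup was higher in EY, and no other member passed the test. A gene is said to have changed at a limma adjusted p under 0.01, and to be called if its log2 fold change also exceeded 1 in size, the thresholds of the study. Of the 9 members tested, 1 changed (11.1%), against 11.8% of all 11630 genes tested. No member was called, against 3.55% of all genes. The median log2 fold change was 0.0042 over the 9 members and 0.03 over all genes, with 5 members above 0 and 4 below. EY and N libraries did not overlap for 1 member, Jup, as for 20.4% of all genes.

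**Figure D2:**
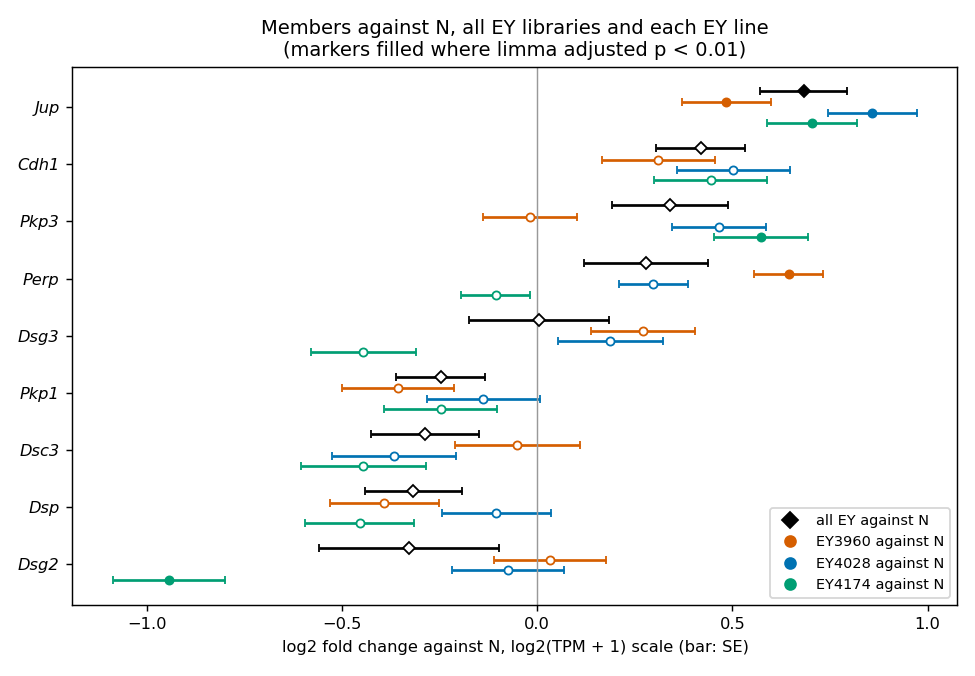
Log2 fold change against N on the log2(TPM + 1) scale (horizontal axis) for the 9 members tested (vertical axis), over all EY libraries (diamonds) and for each EY line (circles); bars are SE and filled markers have a limma adjusted p under 0.01. Jup is the one member with filled markers throughout, from 0.48 in EY3960 to 0.86 in EY4028, and Dsg2 in EY4174 lies farthest to the left, at -0.94.

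Jup encodes plakoglobin, also called gamma-catenin, an armadillo-repeat protein of both junctions. It had 52.2 and 58.5 TPM in EY3960, 73.4 and 70.4 in EY4028, and 68.6 and 60.6 in EY4174. N replicates 1 to 4 had 40.3, 34.4, 37.0 and 46.04 TPM. Every EY library therefore lay above every N library, and line EY3960 lay closest to N. The mean was 63.9 ± 8.16 TPM in EY (n = 6, SD) and 39.4 ± 5.03 TPM in N (n = 4, SD), a ratio of 1.62. The log2 fold change was 0.68 ± 0.11 (SE), with a limma adjusted p of 0.00116.

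The difference in Jup was seen in each line. Against N, its log2 fold change was 0.48 for EY3960 (adjusted p 0.00946), 0.86 for EY4028 (3.32e-04) and 0.70 for EY4174 (0.00132). Jup was the 1 member that changed in the same direction in all 3 lines, which held for 5.67% of all genes. The 3 comparisons share the N libraries, and EY3960 missed the threshold under 13 of 19 alternatives (adjusted p up to 0.102, without EY replicate 4). Between the EY lines Jup did not pass limma's F test (range of line means 0.37 on the log2 scale, adjusted p 0.145). Over all EY libraries Jup stayed past the threshold without any 1 library or EY line, with an adjusted p of 9.91e-04 without N replicate 4. It did not with the line as a random block (adjusted p 0.0397) or when each line was reduced to its mean, with 3 EY lines against 1 N line (adjusted p 0.310).

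Among the 3 other genes whose log2(TPM + 1) followed Jup most closely over the 10 libraries, of 8087 genes with a mean of at least 5 TPM, were Ranbp10 (Pearson r 0.988) and Actn4 (0.987). These correlations describe libraries that share lines and a genotype contrast. Ranbp10 had a mean of 6.59 TPM in EY and 4.20 TPM in N. Actn4, an alpha-actinin that cross-links actin filaments, is among the adherens junction genes described further on.

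Of the other plaque genes none passed the test over all EY libraries, and Pkp1 and Dsp had values below 0 for their log2 fold change. Pkp1, the plakophilin of the suprabasal layers, had 39.3 and 49.3 TPM in EY3960, 51.0 and 51.7 in EY4028, 52.6 and 42.9 in EY4174, and 58.3, 48.7, 52.5 and 69.0 TPM in N. Its log2 fold change was -0.25 ± 0.11 (SE, limma adjusted p 0.133). Dsp, the linker to keratin, had 29.4 and 42.6 TPM in EY3960, 43.2 and 43.6 in EY4028, 37.5 and 30.5 in EY4174, and 50.1, 43.1, 48.9 and 45.2 TPM in N. For both genes the ranges of EY and N overlapped, and 2 EY libraries of Pkp1 and 4 of Dsp lay below all N libraries. The log2 change of Dsp was -0.32 ± 0.12 (SE, limma adjusted p 0.0828).

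Pkp3, a plakophilin found in all layers, had 32.3 and 43.3 TPM in EY3960, 52.4 and 52.9 in EY4028, 55.2 and 58.5 in EY4174, and 36.7, 38.1, 34.4 and 42.7 TPM in N. Line EY3960 had 1 library just below and 1 just above the N range, and the other EY lines lay above it. The log2 fold change over all EY libraries was 0.34 ± 0.15 (SE, limma adjusted p 0.115), and without line EY3960 it was 0.52 (adjusted p 0.0018). In single lines it was -0.02 for EY3960 (adjusted p 0.928), 0.47 for EY4028 (0.0145, and 0.00337 without N replicate 4) and 0.57 for EY4174 (0.00536), which passed. The F test between the EY lines gave an adjusted p of 0.0253. The call in EY4174 was lost under 9 of 19 alternatives, with adjusted p of up to 0.0579 (without EY replicate 6).

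The ratios of Jup to Pkp1 and to Dsp, and the share of Pkp1 in Pkp1 and Pkp3, did not overlap between EY and N. Jup alone did not overlap either, while the ratio of Jup to Ctnnb1, given further on, did. How often ratios of other gene pairs keep the groups apart was not examined. Ratios within a library do not depend on how libraries are scaled. The shares of plakophilins were listed with the members, while the ratios to Jup were added after the values were seen, and neither was tested. The ratio of Jup to Pkp1 TPM lay between 1.19 and 1.44 in EY and between 0.667 and 0.707 in N. Jup thus exceeded Pkp1 in each of 6 EY libraries and lay below it in each of 4 N libraries. The ratio of Jup to Dsp lay between 1.37 and 1.98 in EY and between 0.756 and 1.02 in N, with N replicate 4 the highest of its group. Pkp1 made up 42.3% to 54.9% of the summed Pkp1 and Pkp3 TPM in EY and 56.1% to 61.8% in N. The ratio of Jup to Cdh1 was closer between the groups but did not overlap either, at 3.26 to 3.73 in EY and 2.68 to 3.20 in N.

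**Figure D3:**
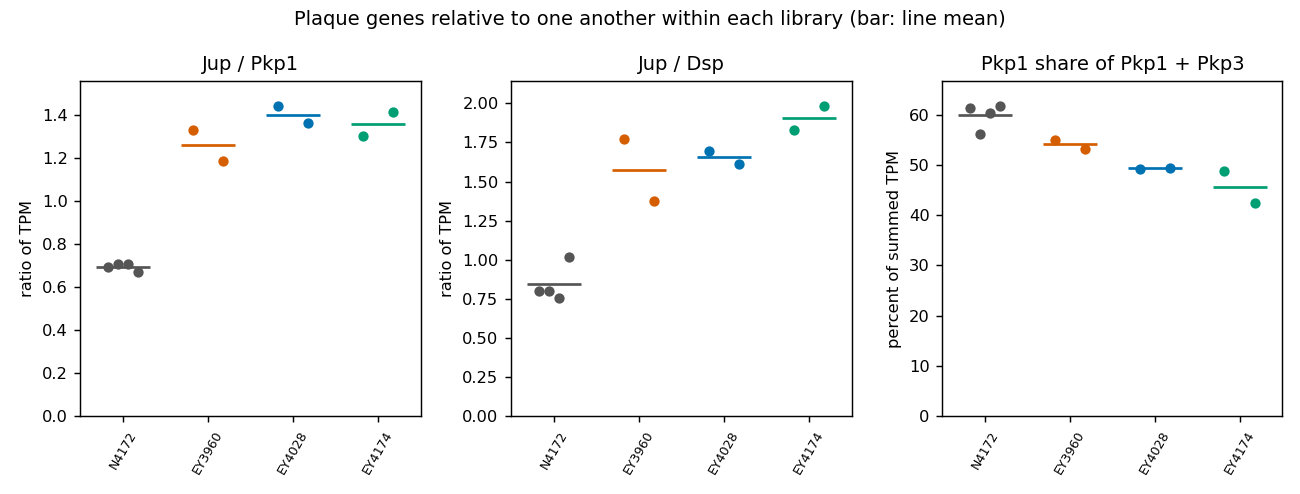
Ratio of Jup to Pkp1 TPM, ratio of Jup to Dsp TPM and percentage of Pkp1 in the sum of Pkp1 and Pkp3 TPM (vertical axes, from 0) in each library by line (horizontal axis); points are libraries and bars line means. In each panel the 6 EY points and the 4 N points do not overlap, with Jup to Pkp1 at 1.19 or more in EY and at 0.707 or less in N.

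No desmosomal cadherin passed the test between EY and N, and Dsg2 varied among the EY lines. Dsg3, the main desmoglein of basal and lower suprabasal keratinocytes, had 128 and 158 TPM in EY3960, 134 and 134 in EY4028, and 102 and 72.6 in EY4174, against 109, 113, 120 and 130.2 TPM in N. Its log2 fold change over all EY libraries was 0.0042 ± 0.18 (SE, limma adjusted p 0.989), and the sign turned under several alternatives. Line EY4174 was the lowest of the 4 lines, at -0.72 against EY3960 (adjusted p 0.00926) and at -0.45 against N (0.0292). Dsc3, its desmocollin partner, had 96.4 and 122 TPM in EY3960, 88.5 and 85.5 in EY4028, and 94.3 and 71.9 in EY4174, against 112, 124, 129 and 89.3 TPM in N. N replicate 4 was the lowest N library and lay among the EY values. The log2 change of Dsc3 was -0.29 ± 0.14 (SE, limma adjusted p 0.152), and -0.40 without N replicate 4 (0.0531). In EY4174 against N it was -0.45 (adjusted p 0.0587), and without N replicate 4 it passed, at -0.56 (0.00643).

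Dsg2, the desmoglein also found in simple epithelia, had 2.65 and 2.94 TPM in EY3960, 2.45 and 2.60 in EY4028, and 1.03 and 0.829 in EY4174, against 2.76, 2.28, 2.55 and 3.32 TPM in N. Both libraries of EY4174 lay below all others, and the other EY lines lay within the N range. Over all EY libraries the log2 fold change was -0.33 ± 0.23 (SE, limma adjusted p 0.327). Line EY4174 was lower than N by a log2 change of -0.94 ± 0.14 (SE, adjusted p 8.41e-04), than EY3960 by -0.98 (0.00239) and than EY4028 by -0.87 (0.00892). The F test between EY lines gave an adjusted p of 0.00362. The F test was lost, at adjusted p of 0.013 to 0.0439, without any 1 EY library, and the difference of EY4174 from N was lost without EY replicate 6 (-0.87, adjusted p 0.0160). At such levels the log2(TPM + 1) scale understates the difference, and the mean of EY4174 was 0.929 TPM against 2.73 ± 0.444 TPM in N (n = 4, SD). The 3 genes with the pattern most like that of Dsg2 were Rpl3-ps1 (Pearson r 0.981), Papd4 (0.979) and Mmd (0.967). Rpl3-ps1 is a ribosomal protein pseudogene, and its reads may be shared with its parent gene.

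Perp differed most clearly among the EY lines. It had 1304 and 1294 TPM in EY3960, 1004 and 1037 in EY4028, and 774 and 769 in EY4174, against 784, 782, 797 and 973 TPM in N. The 3 EY lines did not overlap, EY4174 lay just below all N libraries, and N replicate 4 lay above the other N libraries. Over all EY libraries the log2 fold change was 0.28 ± 0.16 (SE, limma adjusted p 0.227). Against N it was 0.64 ± 0.09 (SE) for EY3960 (adjusted p 3.10e-04), 0.30 for EY4028 (0.0273) and -0.11 for EY4174 (0.397). Without N replicate 4, EY4028 passed as well (0.37, adjusted p 1.52e-04).

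In all, 2 of 9 members (Dsg2 and Perp) differed between the EY lines by the F test, against 8.55% of all genes. Without N replicate 4 there were 4, with Dsg3 and Pkp3 added. The F test of Perp had an adjusted p of 0.00158 and a range of line means of 0.75 on the log2 scale, and its call was lost without EY replicate 1, 3, 4 or 6, at adjusted p up to 0.0154. Line by line, 2 members changed against N in EY3960 (Jup and Perp), 1 in EY4028 (Jup) and 3 in EY4174 (Jup and Pkp3 higher, Dsg2 lower). Of all genes, 17.0%, 16.7% and 15.6% did so in these lines. The summed TPM of the 9 desmosome members was 1685 and 1770 in EY3960, 1450.2 and 1478 in EY4028, 1186 and 1106.5 in EY4174, and 1186 to 1398 in N, most of it from Perp. The 4 desmosomal cadherins summed to 1.46 and 1.49 times the 4 plaque genes in EY3960, to 1.02 and 1.03 times in EY4028, and to 0.755 and 0.924 times in EY4174, against 1.10 to 1.46 times in N. This last ratio was chosen after the values were seen.

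Genes of keratinocyte differentiation varied among the same lines. Of 9 suprabasal markers 7 had a row and 6 were tested, of which 5 differed between the EY lines (against 8.55% of all genes), and their summed level was 1014 to 1022 TPM in EY3960, 525 to 543 in EY4028, 551 to 599.6 in EY4174 and 493 to 694 in N. Krtdap, a keratinocyte differentiation gene, averaged 115 TPM in EY3960, 46.2 in EY4028 and 14.6 in EY4174, with 56.2 ± 14.5 TPM in N (n = 4, SD) and an adjusted p between EY lines of 1.40e-04. Grhl1, a grainyhead-like factor of the upper epidermis that is known to act on desmosomal cadherin genes, averaged 4.76 TPM in EY3960, 2.72 in EY4028 and 1.33 in EY4174, with 1.20 ± 0.171 TPM in N and an adjusted p of 5.20e-04. Its more abundant relative Grhl2 had another order, at 9.66 TPM in EY3960, 11.9 in EY4028 and 11.6 in EY4174. Grhl2 did not pass the F test between EY lines (adjusted p 0.301). Grhl3 had the order of Grhl1, at 2.64, 0.971 and 0.423 TPM (adjusted p 0.00266). Perp, Grhl1 and Krtdap had the same order of the EY lines, as did 3 of the 6 suprabasal markers tested (Krtdap, Ivl and Krt13). Sbsn, which made up most of the summed level, Krt4 and Krt10 had another order, with Sbsn at a mean of 797 TPM in EY3960, 459 in EY4028 and 542 in EY4174. Apart from Perp, these genes were named after their values were seen. The share of all genes that descend from EY3960 over EY4028 to EY4174 was not counted. Cd68 had that order too, at 68.9 and 71.8 TPM in EY3960 and 29.5 and 29.3 in EY4174. Whether any of these has a part in the differences of Perp and Dsg2 between lines was not tested.

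**Figure D4:**
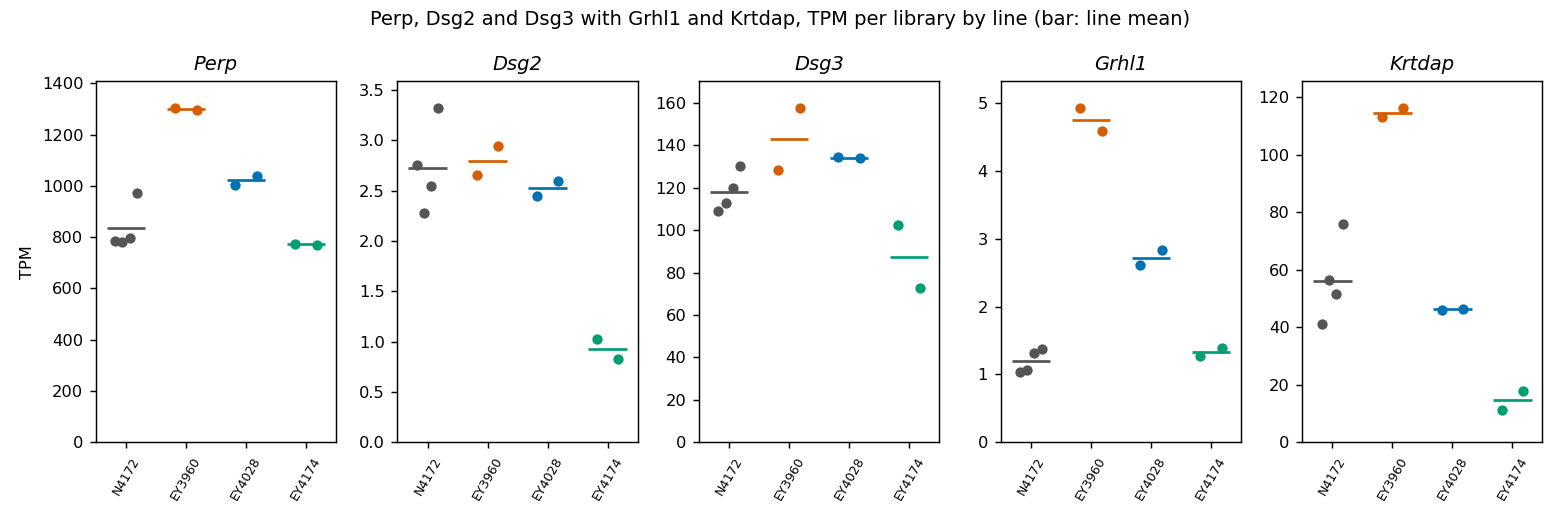
TPM (vertical axes, from 0) of Perp, Dsg2, Dsg3, Grhl1 and Krtdap in each library by line (horizontal axis). Points are libraries and bars line means. Grhl1 and Krtdap were named after their values were seen. Grhl2 and the suprabasal markers Sbsn, Krt4 and Krt10 had another order of the EY lines and are not shown. Perp, Grhl1 and Krtdap descend from EY3960 over EY4028 to EY4174, from 1304 to 769 TPM for Perp, while Dsg2 and Dsg3 are low in EY4174.

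Cdh1, the classical cadherin of epithelial cells, had 16.0 and 17.5 TPM in EY3960, 19.7 and 18.9 in EY4028, and 19.9 and 17.2 in EY4174, against 12.6, 11.4, 12.8 and 17.1 TPM in N. Only N replicate 4 reached into the EY range, and 5 of 6 EY libraries lay above all N libraries. The log2 fold change was 0.42 ± 0.11 (SE), with a limma adjusted p of 0.0194 that missed the threshold. Without N replicate 4 it was 0.53 (adjusted p 0.00256), and each line then passed against N, with 0.42 in EY3960, 0.62 in EY4028 and 0.56 in EY4174. Between the EY lines Cdh1 did not pass the F test (range 0.19, adjusted p 0.641).

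Other desmosome genes were taken from a list of 11, of which 9 had a row and 5 were tested. The plakins Evpl and Ppl rose in EY (2 of 5, against 11.8% of all genes), and the other 3 (Pkp2, Pkp4 and Kazn) did not pass. The median log2 fold change was 0.23. Evpl, which encodes envoplakin of the cornified envelope, had 4.14 and 5.78 TPM in EY3960, 6.03 and 5.80 in EY4028, and 5.90 and 5.69 in EY4174, against 2.03, 1.59, 1.76 and 2.16 TPM in N. It lay higher in every EY library than in any N library, for a log2 change of 1.18 ± 0.12 (SE, limma adjusted p 4.77e-05), and was called. Its partner Ppl, periplakin, averaged 10.5 ± 1.85 TPM in EY (n = 6, SD) and 4.99 ± 1.43 in N (n = 4, SD), for a log2 change of 0.95 ± 0.16 (SE, adjusted p 0.00146). With the line as a random block Evpl passed (adjusted p 0.00457) and Ppl did not (0.0626), and with line means neither passed (0.178 and 0.246).

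The remaining desmosome genes did not pass the test or were too low to be tested. Pkp2, of simple epithelia and heart, had 4.65 ± 0.638 TPM in EY (n = 6, SD) and 4.57 ± 0.523 in N (n = 4, SD), for a log2 change of 0.02 whose sign turned under several alternatives. Pkp4 had a log2 change of 0.15 (adjusted p 0.530). Dsc1 stayed below 0.1 TPM in all libraries. Dsg1b, of the upper layers, had 2.49 and 3.26 TPM in EY3960 and 2.21 TPM in N replicate 4 and less than 1 TPM in the other 7 libraries, and Dsg1a was at most 0.697 TPM. Both were below the filter, and reads of these close copies could be divided between them. Dsg1c and Dsg4 had no row and could not be examined.

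Adherens junction genes other than Cdh1 were taken from a list of 19, all with a row and 18 tested. Of these, 6 rose in EY and 0 fell (33.3% changed, against 11.8% of all genes), and 3 of the 6 were called. The median log2 fold change was 0.13. Nectin2, an immunoglobulin-like adhesion receptor that starts adherens junctions, had 11.8 and 13.02 TPM in EY3960, 9.65 and 9.73 in EY4028, and 11.0 and 13.1 in EY4174, against 4.02, 2.88, 3.49 and 3.35 TPM in N. Its lowest EY library had more than the highest N library, and the log2 fold change was 1.48 ± 0.12 (SE, limma adjusted p 8.74e-06). Nectin3, a preferred partner of Nectin2 across the cell contact, had 3.26 and 3.28 TPM in EY3960, 2.96 and 2.86 in EY4028, and 1.64 and 1.54 in EY4174, against 0.334, 0.332, 0.538 and 0.333 TPM in N. The groups did not overlap, and the log2 fold change was 1.34 ± 0.18 (SE, adjusted p 3.10e-04), or 2.43 with a pseudocount of 0.1 and 0.49 with 5. Nectin4 had less TPM in each EY library (0.281 to 0.972) than in any N library (1.10 to 1.39), for a log2 change of -0.51 (adjusted p 0.0354). It was named after its values were seen.

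The catenins were unequal. Ctnnal1, an alpha-catenin-like protein, had 33.6 and 36.9 TPM in EY3960, 51.1 and 50.3 in EY4028, and 46.4 and 44.4 in EY4174, against 13.0, 14.5, 14.2 and 25.4 TPM in N. N replicate 4 was the highest N library and still below all EY libraries. The log2 fold change was 1.37 ± 0.18 (SE, limma adjusted p 3.04e-04). Ctnna1, alpha-catenin itself, averaged 150.4 ± 19.01 TPM in EY (n = 6, SD) and 97.7 ± 18.8 in N (n = 4, SD), for a log2 change of 0.63 (adjusted p 0.004). Afdn, the actin-binding partner of nectins, had a log2 change of 0.74 (adjusted p 0.00611). Ctnna1 and Afdn were named after their values were seen, and missed the threshold under 9 and 13 of 24 alternatives. Actn4 averaged 92.3 ± 7.87 TPM in EY (n = 6, SD) and 62.3 ± 7.53 in N (n = 4, SD), for a log2 change of 0.56 ± 0.09 (SE, adjusted p 0.00131).

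Beta-catenin (Ctnnb1), the usual partner of E-cadherin, had 251 ± 32.2 TPM in EY (n = 6, SD) and 232 ± 16.8 in N (n = 4, SD), for a log2 change of 0.10 (adjusted p 0.482). Jup lay at 0.177 to 0.337 of the Ctnnb1 level in EY and at 0.154 to 0.213 in N. Those ranges overlapped through N replicate 4 and line EY3960. P-cadherin (Cdh3), of basal cells, had 11.0 ± 2.77 TPM in EY (n = 6, SD) and 9.70 ± 0.984 in N (n = 4, SD), for a log2 change of 0.14 (adjusted p 0.584). With the line as a random block, Nectin2 (adjusted p 7.57e-04) and Nectin3 (0.00646) kept an adjusted p under 0.01, and Ctnnal1 (0.0208), Actn4 (0.0522), Afdn (0.0878) and Ctnna1 (0.0981) did not. With line means none of these 6 genes passed, Nectin2 (0.112) and Nectin3 (0.271) included, in a fit where 2 of all 11630 genes changed.

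**Figure D5:**
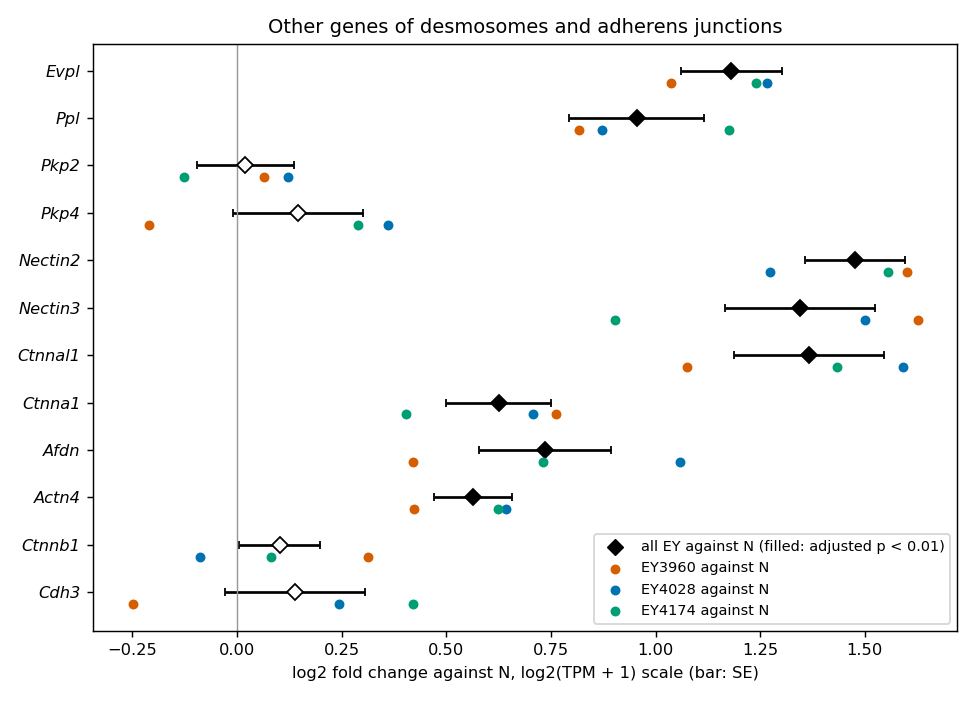
Log2 fold change against N on the log2(TPM + 1) scale (horizontal axis) of 12 other desmosome and adherens junction genes (vertical axis), over all EY libraries (diamonds with SE, filled at a limma adjusted p under 0.01) and for each EY line (circles). Evpl, Ppl, Nectin2, Nectin3, Ctnnal1, Ctnna1, Afdn and Actn4 lie to the right in all 3 lines, from 0.40 to 1.63, and the circles of Pkp2, Pkp4, Ctnnb1 and Cdh3 fall on both sides of 0.

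Regulators of epithelial junctions (transcription factors and the splicing regulator Esrp1) were taken from a list of 16. Of the list, 15 had a row and 13 were tested. Of these, 3 rose in EY and 3 fell (46.2% changed, against 11.8% of all genes), with a median log2 change of 0.29. Twist1, known for repressing E-cadherin, had 2.02 and 2.01 TPM in EY3960, 2.90 and 2.53 in EY4028, and 5.92 and 6.30 in EY4174, against 0.150, 0.260, 0.0851 and 0.274 TPM in N. It was higher in every EY library, most in EY4174, for a log2 change of 1.86 ± 0.26 (SE, limma adjusted p 5.18e-04). At such low N levels the size of the change depends on the pseudocount, with 3.57 at 0.1 and 0.70 at 5, both past the threshold, and the call was lost with line means (adjusted p 0.322). Its relative Twist2 went the other way, at 3.52 and 3.60 TPM in EY3960, 2.58 and 2.59 in EY4028, and 0.671 and 0.654 in EY4174, against 6.86, 5.50, 6.85 and 7.01 TPM in N. The log2 fold change was -1.32 ± 0.31 (SE, adjusted p 0.0099) and missed the threshold under 15 of 23 alternatives, for example without N replicate 4 (0.025). Twist2 was named after its values were seen.

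Snai2 (Slug), a repressor that basal keratinocytes express, had 46.7 and 42.3 TPM in EY4174 as its lowest line and 77.5 to 99.7 TPM in N. The log2 fold change over all EY libraries was -0.61 ± 0.13 (SE, limma adjusted p 0.00555), with 0.0157 without N replicate 4, which was the highest library. Trp63, the p63 gene that sets the stratified programme and is known to act on Perp, averaged 53.0 ± 5.06 TPM in EY (n = 6, SD) and 79.9 ± 13.5 in N (n = 4, SD). Its log2 fold change was -0.58 ± 0.11 (SE, adjusted p 0.00262), with the 3 EY lines within 0.03 of one another on the log2 scale. Klf4, a factor of suprabasal differentiation, averaged 25.5 ± 4.07 TPM in EY (n = 6, SD) and 15.7 ± 2.09 in N (n = 4, SD), for a log2 change of 0.66 ± 0.13 (SE, adjusted p 0.00339). Ovol1, an inducer of epithelial differentiation named after its values were seen, had a log2 change of 1.07 (adjusted p 0.00937) and missed the threshold under most alternatives. With the line as a random block, Snai2, Trp63 and Klf4 missed the threshold, at adjusted p of 0.0769, 0.109 and 0.0806. Zeb1, named after its values were seen, was below the filter and not tested. It had 8.80 TPM in N replicate 1, 0.0251, 0.148 and 0.141 TPM in N replicates 2 to 4, and at most 0.165 TPM in EY.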

How the data were processed

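Poly(A) RNA of 6 EY and 4 N libraries was sequenced as described in the labels. The values used are TPM as deposited by the authors, in 1 table of 18586 rows named by gene symbol. The submitters' processing notes name STAR 2.7.9, SAMtools 1.7, HTSeq 0.13.5, DESeq2 1.34.0 and GRCm39. The paper describes a Kallisto step against a human transcriptome that gave TPM, with the highest transcript standing for its gene, and whether the table came from it is not given in the sources used here. With TPM alone the depth is unknown, and no counting interval can be given.

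The 11630 genes that reached 1 TPM in 4 or more libraries were tested on log2(TPM + 1) with limma 3.58.1 in R 4.3.3 (trend and robust options, Benjamini-Hochberg adjustment over all these genes). EY was compared with N in a fit with group means. Lines were compared in a fit with 4 line means. Every adjusted p is from limma, and tests are two-sided. Thresholds of 0.01 on the adjusted p and 1 on the log2 fold change follow the study. Scripts were tested on simulated data. Members and gene lists were chosen with earlier results of these data known. Members are all described. Of the other lists, the 4 genes with the smallest adjusted p under 0.01 per list and 9 family genes are named, and genes outside this rule are marked as named after their values were seen. For Jup and Dsg2, the members with the highest and lowest fold change, the 3 most similar genes were found, of which 1 is not reported here. Sample numbers of the lines were checked for pairing and do not pair samples.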

Additional observations from a re-analysis of the deposited data

Results flagged for a closer look

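Dixon's criterion was applied to 64 groups of values, from the members and part of the other named genes. Among the named genes left out were Zeb1, Nectin4, Dsg1a, Dsg1b, Dsc1, Grhl2, Grhl3, Krt15, Krt4, Krt10, Sbsn and Cd68. The counts therefore do not cover all named genes. Of the 64 groups, 8 had 1 library far from the others. Chance gives 3.2 for independent libraries. The EY libraries came from 3 lines and are not independent, and some genes were named after their values were seen. Of these 8, 5 were of N replicate 4, with Perp at 973 TPM, Ctnnal1 at 25.4 TPM, Trp63 at 99.9 TPM, Snai2 at 99.7 TPM and Krt13 at 88.6 TPM, each the highest of the N libraries. The others were Evpl in EY replicate 1 (4.14 TPM, the lowest EY library), Nectin3 in N replicate 3 (0.538 TPM, the highest N library) and Twist2 in N replicate 2 (5.50 TPM, the lowest N library).

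A difference between the EY lines by limma's F test was found for 8 of 31 genes examined. Of these genes, Twist2, Grhl1, Krtdap, Ivl and Krt13 were named after their values were seen. The share can therefore not be compared with the 8.55% of all genes tested. The members that differed were Dsg2, with a range of line means of 0.98 on the log2 scale (adjusted p 0.00362), and Perp, with 0.75 (adjusted p 0.00158). The other genes were Twist1 (range 1.24), Twist2 (1.46), Grhl1 (1.30), Krtdap (2.92), Ivl (1.42) and Krt13 (3.75), with adjusted p of 6.30e-04 or less. Ivl, which encodes involucrin of the cornified envelope, and Krt13, a keratin of the suprabasal tongue, were named after their values were seen. Krt13 was highest in EY3960, at 72.5 and 66.0 TPM, and lay at 3.55 and 4.99 TPM in EY4174.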

How the results depend on the processing

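The 1 member that changed between EY and N, Jup, was found in all scalings, pseudocounts and filters run. The number of changed members was 0 when the sample number served as a replicate block, 0 with the line as a random block, 0 with line means and 2 without line EY3960 (Jup and Pkp3), and 1 to 2 when single libraries were left out, with Pkp3 added without EY replicate 1 and Cdh1 without N replicate 4. No alternative called a member. The sample numbers did not pair the libraries, with correlations of deviations between -0.148 and 0.0518 over 6 pairs of lines. The replicate block reduced the genes changed over the whole table from 1377 to 345 (Jup 0.75, adjusted p 0.0154). Sample numbers 3 and 4 occur in N alone, so that with this block the difference rests on N replicates 1 and 2. The number of members that differed between EY lines was 1 with 1 TPM required in every library, where Dsg2 was not tested, and 0 to 4 without single libraries. In these fits a line left with 1 sample is assumed to vary like the others. The number that changed in all 3 EY lines was 0 without a filter, without mitochondrial genes, after quantile normalization and without the trend and robust options, each time because Jup in EY3960 had an adjusted p of 0.0159 to 0.0207, and 0 to 2 without single libraries.

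The direction turned only for log2 fold changes close to 0. Dsg3 between EY and N was -0.026 under median-of-ratios scaling, -0.024 without mitochondrial genes, -0.057 after quantile normalization, -0.13 without line EY3960 and -0.087 without line EY4028, and -0.079 to 0.14 without single libraries. Pkp2 was -0.0054, -0.0028, -0.0032, -0.0024 and -0.031 under the same alternatives in that order, and -0.020 to 0.080 without single libraries. Without line EY3960 Ctnnb1 was -0.0033, and without line EY4174 Cdh3 was -0.0031. Against N, Dsg2 in EY3960 was -0.013 without mitochondrial genes and -0.027 to 0.11 without single libraries, and in EY4028 it was 0.0056 with the replicate block. Without single libraries, Dsc3 in EY3960 ranged from -0.22 to 0.12 and Pkp3 in EY3960 from -0.22 to 0.19. Of all single-gene values, 1258 kept direction and side of the threshold, 129 lost the threshold and 19 gained it. Depth is unknown, so that levels near 0 such as those of Dsc2 cannot be graded.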
